A study of Mus musculus with 9 samples.

Results

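The RNA-seq counts of sorted mouse monocytes and macrophages were examined for 46 named genes of the cell division machinery, out of 53801 genes in the count data. The genes were taken by symbol from a list of known cell cycle genes and not by a rule on their counts in these libraries. The list was nevertheless chosen with earlier results of these data known. The paper had already reported Stmn1 and Aurka as upregulated in these brain macrophages. They fall into 19 genes of DNA replication, which copy the genome in S phase, and 27 mitotic genes, which segregate the chromosomes and divide the cell.

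A cell that enters the cycle first loads the MCM helicase onto replication origins with the help of Cdc6 and Cdt1, and then copies its DNA with polymerases, the sliding clamp PCNA and a fresh supply of nucleotides. In G2 and mitosis the cyclin A and cyclin B partners of CDK1 accumulate, kinases and kinesins build the spindle, and the anaphase-promoting complex destroys the cyclins so that the cell can exit. Blood monocytes are mostly non-dividing cells made in the bone marrow, whereas resident microglia and tissue macrophages can divide in place.

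The comparison covered 3 groups of libraries, all from male C57BL/6J mice of 9 weeks without transgenes. In stroke mice the distal middle cerebral artery was permanently occluded together with the left common carotid artery (dMCAO), and their brain and blood were taken 5 days later; sham-operated mice gave blood only, at a day that the sources used here do not name. Each of the 3 sham blood and 3 stroke blood libraries came from 1 mouse, and each of the 3 stroke brain libraries from a pool of 5 mice, so brain values already average over animals. Brain cells were released with a tissue dissociation kit on a heated dissociator and passed over a Percoll gradient, whereas blood was separated in Ficoll. Effects of tissue and of preparation therefore cannot be told apart between brain and blood, for any gene below. Cells were sorted as CD11c-Ly6G-CD11b+CD45high, a gate that cannot separate activated microglia from macrophages that came from blood.

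Total counts per library ranged from 18475118 to 22623578, so that 3 counts, taken here as the floor of detection, corresponded to between 0.133 and 0.162 CPM, the counts of a gene scaled to 1000000 counts per library. Replicates differed by far more than counting noise, and 2 libraries stood apart from their group: stroke brain replicate 1 and sham blood replicate 1. Csf1r, the receptor that monocytes and macrophages depend on, stood between 2091 and 3934 CPM in all 9 libraries, and the 10 monocyte markers together were lower in the brain than in blood. Differences were tested with edgeR's quasi-likelihood test over all genes that passed its filter on low counts. A gene was called a differentially expressed gene (DEG) when its p after Benjamini-Hochberg adjustment was below 0.05 and its log2 fold change lay beyond 1 in either direction.

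Replication and mitotic transcripts were both more abundant in brain macrophages than in either blood group, and the mitotic ones by the larger ratio. The 19 replication genes summed to 201.1, 195.1 and 159.6 CPM in the stroke blood libraries and to 612.8, 458.7 and 495.2 CPM in the stroke brain libraries. The 27 mitotic genes summed to 70.4, 71.9 and 62.6 CPM in stroke blood and to 403.8, 343.2 and 247.9 CPM in stroke brain. The groups did not overlap for either sum, and the ratio of the group means was 2.82 for replication and 4.86 for mitosis. The sham blood libraries lay between, at 221.5, 226.7 and 241.5 CPM for replication and at 138.6, 117.8 and 96.1 CPM for mitosis.

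**Figure D1:**
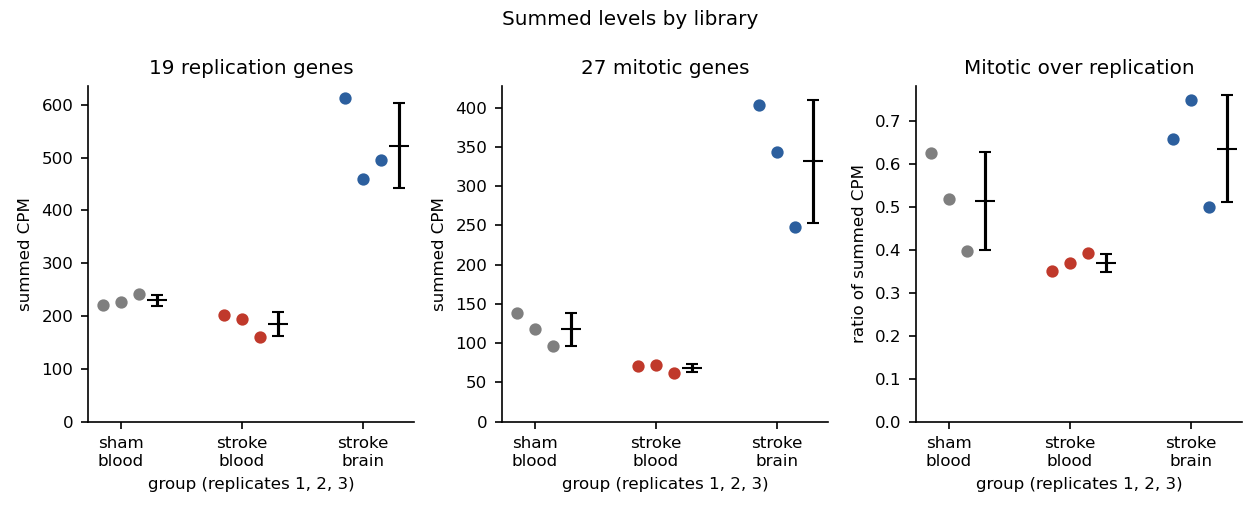
Summed CPM of the replication genes (left) and of the mitotic genes (middle) and the ratio of the sums (right), with each library as a point and the mean ± SD of the 3 libraries of a group as a bar. All stroke brain libraries lie above all blood libraries for both sums, while their ratios (0.501 to 0.748) overlap those of sham blood (0.398 to 0.626).

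The balance between both gene sets differed as well. The summed mitotic CPM per summed replication CPM was 0.370 ± 0.021 in stroke blood (SD, n = 3), 0.515 ± 0.114 in sham blood and 0.636 ± 0.125 in stroke brain. Every stroke brain library lay above every stroke blood library, whereas the stroke brain and sham blood libraries overlapped. Per kilobase of exon, the median replication gene stood at 0.957 ± 0.214 CPM per kb in stroke blood and 4.26 ± 0.93 CPM per kb in stroke brain. For the median mitotic gene these levels were 0.200 ± 0.042 and 2.52 ± 0.50 CPM per kb. In bulk RNA, a larger share of dividing cells and more of these transcripts per cell cannot be told apart.

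In the stroke brain versus stroke blood comparison all 46 genes passed the filter and had a positive log2 fold change, and 35 of them were DEGs. Of the 19 replication genes, 12 were upregulated in brain macrophages and 0 downregulated, with a median log2 fold change of 1.42. Of the 27 mitotic genes, 23 were upregulated and 0 downregulated, with a median of 3.31. Over all 13189 genes tested the median was 0.06, 13.1% were upregulated DEGs and 7.86% were downregulated DEGs. All 3 stroke brain libraries lay above all 3 stroke blood libraries for 18 replication and 24 mitotic genes, against 31.9% of the genes tested. Dut, Aurkb, Kif23 and Ube2c were the genes whose groups overlapped.

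**Figure D2:**
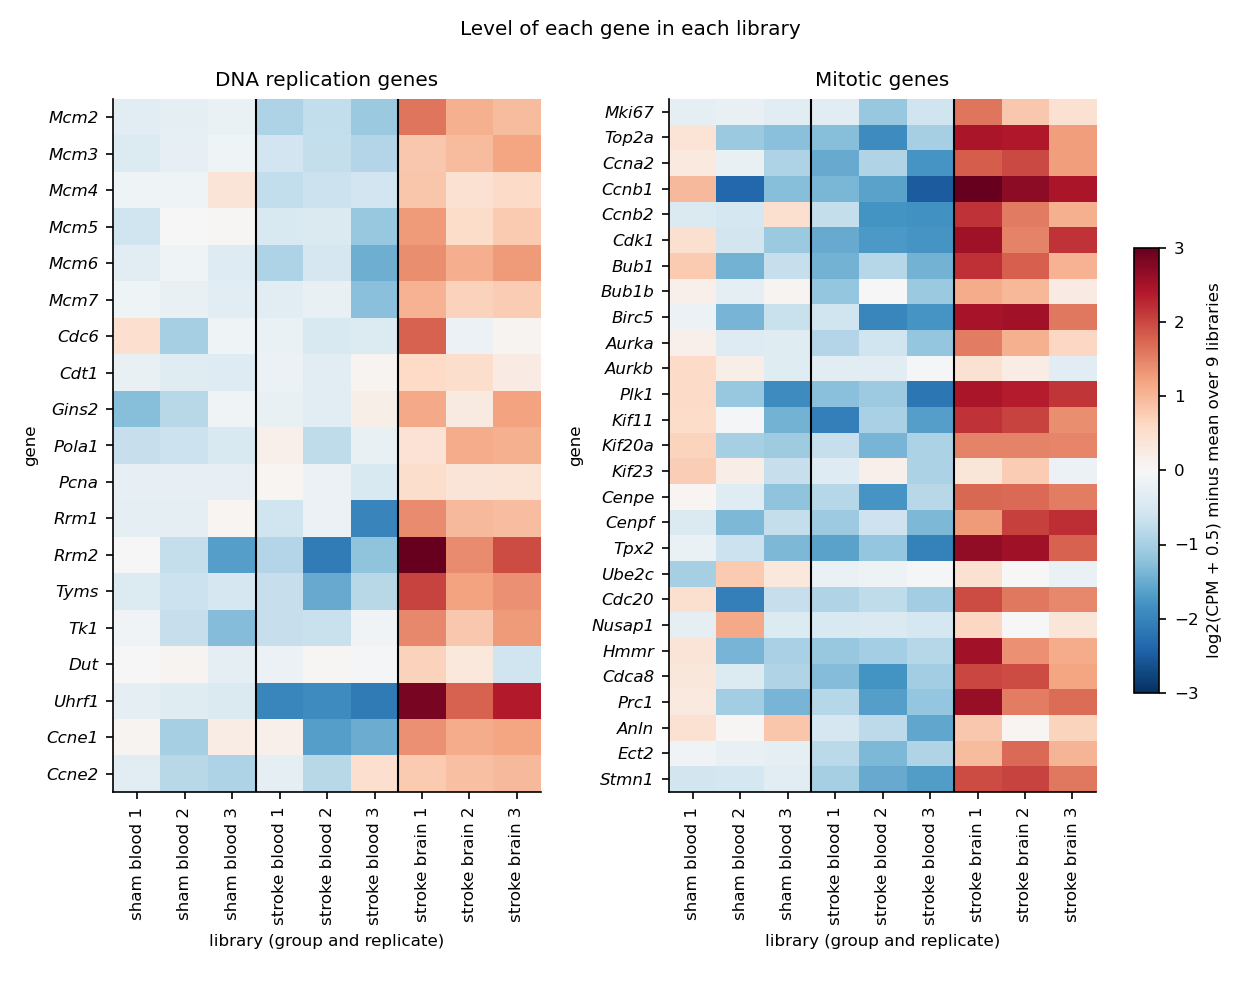
Level of each replication gene (left) and mitotic gene (right) in each of the 9 libraries, as log2(CPM + 0.5) minus the gene's mean over the libraries, with colors held at -3 and 3. Stroke brain columns are red for most genes, while Aurkb, Kif23, Ube2c and Dut stay pale.

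Among the replication genes, the 6 subunits of the MCM helicase, which unwinds DNA at the fork, were all upregulated in brain macrophages. Mcm2 stood at 6.95, 7.98 and 6.04 CPM in stroke blood and at 42.6, 29.4 and 26.9 CPM in stroke brain, and Mcm6 at 12.6, 17.3 and 8.53 against 65.3, 53.2 and 59.9 CPM. Both genes were separated without overlap, by log2 fold changes of 2.08 ± 0.25 (SE) and 2.06 ± 0.26 (edgeR adjusted p = 0.00039 and 0.00047). The smallest MCM change was that of Mcm4, from 19.1, 20.4 and 21.5 to 58.1, 44.3 and 48.4 CPM (1.15 ± 0.19, adjusted p = 0.0019). Mcm3, Mcm5 and Mcm7 lay between, at 1.58, 1.42 and 1.27. The call for Mcm7 was lost without stroke blood replicate 3, where it had 117 counts against 254 and 289 in the other stroke blood libraries, and Mcm7 shares exon sequence with genes on the opposite strand.

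The MCM subunits form a complex in equal numbers, but their levels per kilobase were not equal. These levels divide by the merged length of all annotated exons, 6956 bases for Mcm2 against 3752 for Mcm3 and 3589 for Mcm4. Ranks and ratios per kilobase therefore depend on these lengths. In CPM, Mcm2 lay above Mcm7 in stroke brain replicates 1 and 2, at 42.6 and 29.4 against 32.8 and 25.6 CPM. It lay below Mcm7 in all other libraries. Mcm2 had the lowest level per kilobase of the 6 in every library, and Mcm4 or Mcm3 the highest. The highest stood 4.96 to 6.89 times above the lowest in the 6 blood libraries, and 2.64, 3.88 and 5.01 times above it in the 3 stroke brain libraries. The range of the ratios therefore overlapped between blood and brain.

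Cdc6 and Cdt1, which load the helicase, did not pass the test, and neither did Gins2 and Pola1. Cdc6 had 26, 21 and 19 counts in stroke blood and 119, 29 and 35 in stroke brain, so that 1 brain library held most of its signal (log2 fold change 1.34 ± 0.66, adjusted p = 0.15, and 0.28 without stroke brain replicate 1). Cdt1 had 374, 347 and 400 counts in stroke blood and 583, 668 and 520 in stroke brain (0.45 ± 0.21, adjusted p = 0.14). For both genes every brain library was above every stroke blood library, but neither passed the adjusted test. Gins2, a subunit of the active helicase, and Pola1, the catalytic subunit of the priming polymerase, had log2 fold changes of 1.03 ± 0.42 and 1.13 ± 0.43 (adjusted p = 0.093 and 0.073). Gins2 shares much of its exon sequence with Gse1 on the opposite strand, so its counts are uncertain.

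Pcna, the sliding clamp, was the most abundant replication transcript per kilobase in each group, and it changed little. It stood at 58.4, 49.2 and 40.7 CPM in stroke blood, 47.2, 47.4 and 46.9 CPM in sham blood and 80.8, 73.8 and 74.6 CPM in stroke brain. Its log2 fold change in brain over stroke blood was 0.47 ± 0.17 (adjusted p = 0.065), under the threshold on size as well. Pseudogene copies of Pcna held 98 counts in all libraries together, against 10669 for Pcna itself.

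Genes of nucleotide supply ranged from among the largest to the smallest changes of the replication list. Rrm2, the regulated subunit of ribonucleotide reductase, which makes deoxyribonucleotides, rose from 54, 18 and 36 counts in stroke blood to 942, 332 and 466 counts in stroke brain (3.84 ± 0.55, adjusted p = 0.0011). Tyms, thymidylate synthase, rose from 50, 25 and 40 to 355, 234 and 253 counts (2.68 ± 0.40, adjusted p = 0.0013). Both were highest in stroke brain replicate 1. Rrm1, the large reductase subunit, rose by 1.76 ± 0.40 and thymidine kinase Tk1 by 1.69 ± 0.37. Dut, the dUTPase that keeps uracil out of DNA, stood at 6.85, 8.02 and 7.50 CPM in stroke blood and at 12.7, 9.72 and 4.95 CPM in stroke brain. Its brain libraries lay on both sides of the blood ones (0.13 ± 0.36, adjusted p = 0.80).

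Uhrf1 showed the largest log2 fold change of the 46 genes. It encodes a protein that brings the maintenance methyltransferase to newly copied DNA. Uhrf1 had 5, 6 and 3 counts in the stroke blood libraries, 39, 37 and 30 in sham blood and 378, 211 and 310 in stroke brain. The stroke brain libraries were far above both blood groups, and sham blood was above stroke blood without overlap. The log2 fold change of brain over stroke blood was 5.80 ± 0.46, a 55.9-fold difference (edgeR adjusted p = 4.7e-05), which stayed between 5.52 and 6.05 when any single library was left out.

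The E-type cyclins drive entry into S phase with CDK2. Ccne1 had 43, 5 and 6 counts in stroke blood and 102, 101 and 102 in stroke brain. The brain libraries agreed closely while stroke blood replicate 1 stood far above the other two (2.31 ± 0.74, adjusted p = 0.041), and the call held in 1 of the 6 fits with a library left out. Ccne2 had 15, 7 and 29 counts in stroke blood and 38, 51 and 51 in stroke brain (1.18 ± 0.62, adjusted p = 0.18).

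The 3 mitotic cyclins and their kinase were all upregulated in brain macrophages. Ccnb1, cyclin B1, had 12, 9 and 0 counts in stroke blood and 412, 395 and 318 in stroke brain (5.56 ± 0.65, adjusted p = 0.00036). Cdk1 had 6, 4 and 3 counts against 239, 133 and 208 (5.27 ± 0.50, adjusted p = 0.00013). In CPM, Ccnb1 reached at most 0.579 in stroke blood and at least 14.7 in stroke brain, and Cdk1 at most 0.289 and at least 5.88. Ccnb2, cyclin B2, stood at 2.89, 1.11 and 1.08 CPM in stroke blood and at 24.4, 16.0 and 11.2 CPM in stroke brain (3.18 ± 0.47), and Ccna2, cyclin A2, at 1.06, 1.90 and 0.81 against 15.2, 17.2 and 10.1 CPM (3.33 ± 0.41).

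Besides Cdk1, the mitotic and checkpoint kinase genes Plk1, Bub1, Bub1b and Aurka were upregulated, and Aurkb was not. Plk1, which drives centrosome maturation and mitotic entry, had 9, 12 and 0 counts in stroke blood and 220, 250 and 205 in stroke brain (4.82 ± 0.69, adjusted p = 0.0010). Bub1, a kinase of the spindle checkpoint, had 0, 5 and 0 counts against 104, 93 and 49 (5.37 ± 0.98, adjusted p = 0.0034). The related checkpoint gene Bub1b was much better detected in blood, with 85, 208 and 78 counts against 405, 448 and 251, and its change was smaller (1.41 ± 0.39, adjusted p = 0.024, a call that held in 2 of the 6 fits with a library left out). Aurka, the spindle pole Aurora kinase, rose by 1.97 ± 0.33 (adjusted p = 0.0024). Aurkb, the centromere and midzone Aurora kinase, stood at 10.8, 10.7 and 13.1 CPM in stroke blood and at 18.9, 15.8 and 10.6 CPM in stroke brain, with overlapping groups (0.23 ± 0.27, adjusted p = 0.55).

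Aurkb is the catalytic subunit of the chromosomal passenger complex, and of its partners Birc5 and Cdca8 passed the test and Incenp did not. Birc5, survivin, had 33, 7 and 8 counts in stroke blood and 322, 401 and 196 in stroke brain (4.06 ± 0.59, adjusted p = 0.0011). Cdca8, borealin, had 34, 22 and 38 counts against 391, 452 and 249 (3.31 ± 0.39, adjusted p = 0.00035). Both were separated between the groups without overlap. Incenp, the scaffold, is on the list of further mitotic genes and was named after its values were seen. It had 383, 448 and 187 counts in stroke blood and 474, 445 and 407 in stroke brain, with overlapping groups (0.22 ± 0.28, adjusted p = 0.59).

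Among the other spindle and kinetochore genes of the 27, the motor Kif11 (4.71 ± 0.81), the spindle assembly factor Tpx2 (5.16 ± 0.61), the microtubule-binding gene Hmmr (4.54 ± 0.68), the midzone bundler Prc1 (3.82 ± 0.52) and the kinetochore genes Cenpe (3.53 ± 0.62) and Cenpf (4.67 ± 0.83) were all DEGs. Tpx2 had 5, 11 and 1 counts in stroke blood and 256, 284 and 155 in stroke brain. Hmmr had 2, 3 and 4 counts in stroke blood and 130, 65 and 50 in stroke brain. Nusap1, a spindle-associated protein, did not pass, at 4.82, 4.87 and 4.53 CPM in stroke blood and 10.7, 6.72 and 8.84 CPM in stroke brain (0.73 ± 0.30, adjusted p = 0.096). Its groups did not overlap.

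Stmn1, which encodes the microtubule-destabilizing protein stathmin, had the smallest adjusted p of the mitotic genes. It stood at 5.89, 5.92 and 7.04 CPM in sham blood, 4.20, 2.78 and 2.43 CPM in stroke blood and 35.5, 37.6 and 27.3 CPM in stroke brain. The stroke brain libraries were close to each other and far above both blood groups (3.26 ± 0.28 over stroke blood, a 9.57-fold difference, edgeR adjusted p = 7.0e-05). Per kilobase, Stmn1 ranked first among the mitotic genes in the brain, at 17.4 ± 2.8 CPM per kb, ahead of Ccnb2 at 11.2 ± 4.3. In both blood groups the first rank was held by Ube2c, at 7.19 ± 3.94 CPM per kb in sham blood and 5.62 ± 0.29 in stroke blood, followed by Aurkb and then Stmn1.

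Mki67 and Top2a, the most used proliferation markers, both rose. Mki67 stood at 4.97, 2.60 and 3.99 CPM in stroke blood and at 20.2, 11.5 and 8.84 CPM in stroke brain (1.65 ± 0.39, adjusted p = 0.012). Top2a, the topoisomerase that untangles sister chromatids, rose from 1.88, 1.07 and 2.37 to 31.1, 29.7 and 13.3 CPM (3.64 ± 0.43, adjusted p = 0.00039). Of the 23 upregulated mitotic genes, only Anln and Bub1b had smaller log2 fold changes than Mki67.

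At mitotic exit and cytokinesis the genes were split. Cdc20, an activator of the anaphase-promoting complex, rose by 2.74 ± 0.33 (adjusted p = 0.00038), but Ube2c, the conjugating enzyme of the same complex, did not pass, at 13.9, 14.4 and 15.4 CPM in stroke blood and 22.2, 16.2 and 13.9 CPM in stroke brain (0.10 ± 0.24, adjusted p = 0.78). Ect2, which activates RhoA for the cleavage furrow, and the kinesin Kif20a rose by 3.15 ± 0.57 and 2.99 ± 0.46. The kinesin Kif23, a subunit of centralspindlin, stood at 6.71, 9.97 and 4.37 CPM in stroke blood and 11.8, 15.6 and 7.87 CPM in stroke brain (0.59 ± 0.37, adjusted p = 0.25). Anln, the furrow scaffold anillin, passed narrowly (1.54 ± 0.47, adjusted p = 0.036) and held its call in 1 of the 6 fits with a library left out. Ube2c, Cdc20, Nusap1, Plk1, Ccna2, Cdca8, Prc1, Kif20a, Tk1 and Ccne2 share part of their exon sequence, from 53 bases in Cdc20 to 1271 in Kif20a, with a gene on the opposite strand. Without a stated strand setting, reads inside the shared stretch cannot be assigned to 1 of the partners, while reads outside it can.

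**Figure D3:**
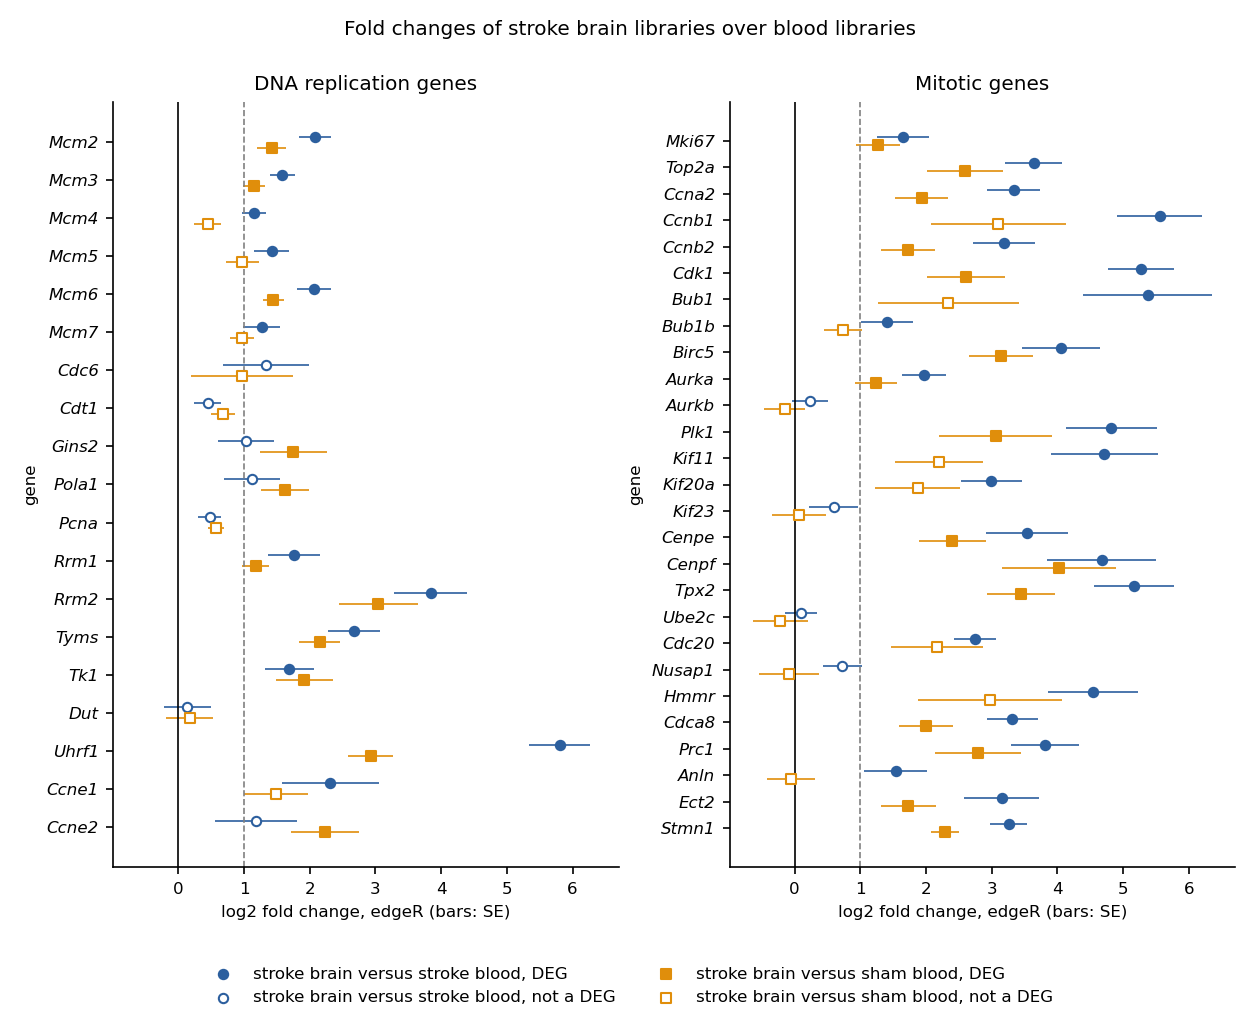
Log2 fold change of each gene for stroke brain versus stroke blood (circles) and stroke brain versus sham blood (squares), with the SE as a bar and filled symbols for DEGs; the dashed line marks a log2 fold change of 1. Uhrf1, at 5.80, lies farthest to the right on the left panel and Ccnb1, at 5.56, on the right panel, and 35 circles and 26 squares are filled.

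The promoters of these genes were read from RefSeq (build GRCm38.p6, 250 bases before to 50 after the transcription start) to show what the genes share in sequence. Of the 46 genes, 38 had an entry, and Aurkb, Ccna2, Tpx2, Stmn1, Kif20a, Mcm4, Gins2 and Ccne2 had none. In the shares below each gene entered once, with a match if any of its RefSeq starts had one. The cell cycle genes homology region (CHR, TTTGAA or TTCGAA on either strand) is an element known from promoters of genes expressed in G2 and mitosis. It was found in 18 of the 22 mitotic promoters (81.8%), 2 of the 16 replication promoters (12.5%) and 17.0% of the promoters of the genes tested. CCAAT boxes stood in 86.4% of the mitotic and 62.5% of the replication promoters, against 42.9% of the genes tested. The promoters of 4 upregulated mitotic genes are printed 5′ to 3′ on the strand of the gene, from 200 bases before the start to the base before it, with CHR matches in capitals. They are the mitotic genes with a CHR match in this stretch and the largest log2 fold changes (Cdk1 5.27, Kif11 4.71, Prc1 3.82 and Top2a 3.64).
Cdk1, chr10:69352913-69353112, minus strand: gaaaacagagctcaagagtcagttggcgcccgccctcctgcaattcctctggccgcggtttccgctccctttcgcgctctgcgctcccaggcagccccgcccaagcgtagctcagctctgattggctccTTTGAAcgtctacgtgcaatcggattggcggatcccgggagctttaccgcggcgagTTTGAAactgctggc
Kif11, chr19:37376182-37376381, plus strand: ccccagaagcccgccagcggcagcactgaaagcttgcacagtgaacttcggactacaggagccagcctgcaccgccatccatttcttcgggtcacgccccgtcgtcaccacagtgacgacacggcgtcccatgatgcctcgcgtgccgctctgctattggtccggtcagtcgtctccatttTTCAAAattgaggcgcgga
Prc1, chr7:80294276-80294475, plus strand: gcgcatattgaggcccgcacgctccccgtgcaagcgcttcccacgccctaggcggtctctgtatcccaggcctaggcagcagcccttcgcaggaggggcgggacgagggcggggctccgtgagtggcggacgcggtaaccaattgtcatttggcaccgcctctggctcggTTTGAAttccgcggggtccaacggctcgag
Top2a, chr11:99024190-99024389, minus strand: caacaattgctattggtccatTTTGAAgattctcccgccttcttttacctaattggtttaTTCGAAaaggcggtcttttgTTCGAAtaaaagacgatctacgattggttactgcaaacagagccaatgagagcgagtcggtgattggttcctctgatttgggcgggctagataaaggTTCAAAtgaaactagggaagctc

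E2F sites are known from promoters of genes expressed at the start of S phase. One of the motifs TTTGGCGC, TTTCCCGC, TTTCGCGC and TTTGCCGC, on either strand, was found in 8 of the 16 replication promoters, in 1 of the 22 mitotic promoters, that of Cdk1, and in 4.71% of the promoters of the genes tested. The same stretch is printed for the 4 replication genes with a match there and the largest log2 fold changes (Uhrf1 5.80, Mcm6 2.06, Mcm5 1.42 and Cdc6, which did not pass the test, 1.34), with E2F matches in capitals. In Mcm6 and Mcm5 a pair of matches on opposite strands overlap and form 1 run of capitals. The printed stretches of Uhrf1 and Cdc6 lie inside the annotated genes, which start at 56303321 and 98907801. Uhrf1 also had a RefSeq start with CCAAT boxes but no E2F match.
Uhrf1, chr17:56304113-56304312, plus strand: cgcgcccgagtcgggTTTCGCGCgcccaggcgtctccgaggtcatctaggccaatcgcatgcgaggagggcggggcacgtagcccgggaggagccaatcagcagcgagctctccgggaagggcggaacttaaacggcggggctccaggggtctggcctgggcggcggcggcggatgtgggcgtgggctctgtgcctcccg
Mcm6, chr1:128359706-128359905, minus strand: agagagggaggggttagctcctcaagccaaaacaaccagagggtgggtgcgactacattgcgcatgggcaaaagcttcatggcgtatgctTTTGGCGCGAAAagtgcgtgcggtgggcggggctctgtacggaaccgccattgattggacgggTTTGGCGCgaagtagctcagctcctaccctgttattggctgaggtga
Mcm5, chr8:75109309-75109508, plus strand: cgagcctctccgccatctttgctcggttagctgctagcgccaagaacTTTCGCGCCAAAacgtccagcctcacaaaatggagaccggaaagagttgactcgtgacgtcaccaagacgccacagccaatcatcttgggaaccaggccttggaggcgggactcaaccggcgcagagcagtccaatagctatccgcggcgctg
Cdc6, chr11:98907951-98908150, plus strand: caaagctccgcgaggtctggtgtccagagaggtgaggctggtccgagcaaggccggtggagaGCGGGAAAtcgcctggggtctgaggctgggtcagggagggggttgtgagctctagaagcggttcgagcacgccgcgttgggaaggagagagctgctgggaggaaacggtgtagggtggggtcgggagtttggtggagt

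The calls of genes with and without a match were set side by side. Of the 18 mitotic genes with a CHR match 16 were upregulated DEGs, and the others were Kif23 and Ube2c, whose groups overlapped. Of the 4 without a match, Ccnb1, Birc5 and Cenpe were DEGs and Nusap1 was not. Of the replication genes with an E2F match 5 of 8 were DEGs, and of those without one 6 of 8, Rrm2 and Tyms among them. Over the whole lists, 23 of 27 mitotic and 12 of 19 replication genes were upregulated DEGs, against 13.1% of all genes tested. The share of DEGs among all genes with a match was not counted. A match only says that these letters stand in the window.

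Replication and mitotic genes were also compared between brain macrophages and sham blood. This comparison shares the stroke brain libraries with the one above, so it is no separate evidence of direction. Of 19 replication genes 11 were upregulated DEGs, with a median log2 fold change of 1.42, and of 27 mitotic genes 15, with a median of 2.17; 0 were downregulated. Of the 13020 genes tested 9.75% were upregulated and 3.67% downregulated DEGs, with a median of 0.01. All stroke brain libraries lay above all sham blood libraries for 17 replication and 22 mitotic genes, against 27.4% of the genes tested. Stmn1 (2.29 ± 0.21, adjusted p = 0.00075), Mcm6 (1.44 ± 0.16, adjusted p = 0.0015) and Uhrf1 (2.93 ± 0.35, adjusted p = 0.0021) had the smallest adjusted p.

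The calls against sham blood depended on single libraries. When each library was left out in turn, 6 of the 11 replication calls and 3 of the 15 mitotic calls (Birc5, Tpx2 and Stmn1) held in all 6 fits. Mitotic calls rose to 18 without sham blood replicate 1 and fell to 4, 7 and 5 without sham blood replicates 2 and 3 and stroke brain replicate 2; replication calls fell to 6 without sham blood replicate 2 and to 7 without stroke brain replicate 3. Sham blood replicate 1 had the highest CPM of its group for 21 of 27 mitotic genes, a share not counted over all genes. Ccnb1 had 103 counts there, against 1 and 12 in replicates 2 and 3, and Plk1 had 59 against 11 and 2. The same library had a summed erythroid marker level of 1227 CPM, against 34197 and 30435 CPM in the other sham blood libraries, and the part of this difference in the mitotic values was not tested.

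Between stroke blood and sham blood no replication or mitotic gene was a DEG by edgeR, where 1 of 12664 genes was (0.0079%). Of the 43 genes tested, 36 had a negative log2 fold change, with medians of -0.43 over 19 replication and -1.08 over 24 mitotic genes, against -0.03 over all genes tested. Bub1, Cenpf and Hmmr had too few counts in blood to be tested. At an unadjusted p below 0.05, 5 replication and 8 mitotic genes were lower and 0 higher in stroke blood, against 5.97% lower and 6.51% higher over all genes tested. All stroke blood libraries lay below all sham blood libraries for 6 replication genes (Mcm2, Mcm3, Mcm4, Mcm6, Tyms and Uhrf1) and 8 mitotic genes (Ccnb2, Cdk1, Aurka, Nusap1, Cdca8, Anln, Ect2 and Stmn1), against 10.5% of the genes tested. The lowest adjusted p, 0.29, was that of Uhrf1 and Cdk1, with log2 fold changes of -2.87 ± 0.50 and -2.66 ± 0.73.

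DESeq2 called 1 replication gene, Uhrf1, and 1 mitotic gene, Anln, lower in stroke blood and none of either list higher. Over all genes it called 66 lower and 61 higher. Anln had 100, 74 and 118 counts in sham blood and 46, 38 and 15 in stroke blood, and stroke brain, with 118, 80 and 123 counts, was level with sham blood (-0.05 ± 0.37 in brain versus sham blood). Without sham blood replicate 1 the medians moved to -0.23 for replication and -0.60 for mitotic genes.

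Further genes of both processes, from lists of 44 replication and 54 mitotic genes, were counted in the same fit. In brain over stroke blood, 10 of 43 further replication genes tested were upregulated DEGs, 0 were downregulated and 33 were not called. Their median log2 fold change was 0.70, below that of the 19 replication genes. Over all 13189 genes tested, 13.1% were upregulated and 7.86% downregulated DEGs, with a median of 0.06. The largest were Pole (3.94 ± 1.01), the leading-strand polymerase, Chek1 (3.23 ± 0.80), the replication checkpoint kinase, Prim1 (3.08 ± 0.84), a primase subunit, Lig1 (2.55 ± 0.45), the ligase that joins Okazaki fragments, and the histone chaperone subunit Chaf1a (2.50 ± 0.68). Chaf1a shares 4648 of its 8854 exon bases with Ubxn6 on the opposite strand, so its counts are uncertain. Pole and Chek1 had few counts, 144 and 74 over all 9 libraries, and Pole had 0 in stroke blood replicates 1 and 3. Among 51 further mitotic genes tested, 36 were upregulated DEGs and 0 downregulated, with a median of 2.42. By summed CPM the further lists differed less from each other than by medians. The further replication genes summed to 564.6 ± 49.4 CPM in stroke blood and 874.3 ± 38.8 in stroke brain. For the further mitotic genes the sums were 575.0 ± 26.5 and 969.8 ± 21.4 CPM. Pbk had 0 counts in all stroke blood libraries and 179, 135 and 109 in stroke brain, and Cdc25c, the phosphatase that activates CDK1, had 0 counts against 55, 40 and 37, so that they were at least 46.1-fold and at least 14.4-fold higher in the brain by the floor of 3 counts per library. Kif18b, Kif2c and Nuf2 had 1, 1 and 0, 2, 0 and 0, and 3, 0 and 0 counts in stroke blood, and 201, 61 and 99, 86, 160 and 125, and 177, 123 and 112 counts in stroke brain.

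Genes of the G1 phase, in which a cell commits to division, were upregulated for 5 of 9 tested and downregulated for 0. The shares over all genes tested were 13.1% and 7.86%. Ccnd1, cyclin D1, stood at 0.434, 1.02 and 1.13 CPM in stroke blood and at 15.4, 29.4 and 24.1 CPM in stroke brain (4.58 ± 0.43, adjusted p = 0.00012). Myc, at 3.52, 5.24 and 3.51 against 36.0, 33.3 and 35.1 CPM, rose by 2.93 ± 0.24, and Cdk6 by 1.84 ± 0.23. Ccnd3, cyclin D3, was lower in every stroke brain library than in every stroke blood library, at 558, 591 and 578 CPM in stroke blood against 347, 420 and 365 CPM in stroke brain. Its log2 fold change of -0.76 ± 0.14 (adjusted p = 0.0040) stayed within the threshold on size. Cdk4, at 0.10 ± 0.16, and Cdk2, at 0.36 ± 0.21, did not pass.

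Of 16 transcription factors of the cycle tested, 3 were upregulated and 2 downregulated, close to the shares over all genes tested (13.1% and 7.86%). The upregulated ones were the mitotic regulators Mybl2 (4.87 ± 1.10), Foxm1 (2.35 ± 0.72) and Lin9 (1.30 ± 0.36), and the downregulated ones E2f2 (-1.29 ± 0.30) and Tfdp2 (-1.65 ± 0.23). Mybl2 had 1, 5 and 0 counts in stroke blood and 134, 20 and 43 in stroke brain, and Foxm1 15, 6 and 14 against 125, 32 and 44, so stroke brain replicate 1 was far above the other brain libraries for both. Foxm1 and Lin9 kept their calls in 2 of the 6 fits with a library left out. E2f1 had 328, 363 and 198 counts in stroke blood and 408, 430 and 434 in stroke brain (0.34 ± 0.23, adjusted p = 0.30).

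A list of CDK inhibitors, pocket proteins and genes of the p53 and antiproliferative response had 7 of 17 tested genes upregulated and 0 downregulated. Over all genes tested the shares were 13.1% and 7.86%. Cdkn1a, the CDK inhibitor p21, stood at 54.3, 47.8 and 60.8 CPM in stroke blood and at 629, 406 and 348 CPM in stroke brain (2.92 ± 0.24, adjusted p = 5.4e-05). Gadd45g rose by 3.43 ± 0.40, Gadd45b by 2.08 ± 0.27 and Btg2 by 1.78 ± 0.21, with Btg2 between 381 and 432 CPM in stroke blood and between 1092 and 1874 CPM in stroke brain. Btg1, Cdkn2b and Mdm2, which encodes the ligase that degrades p53 and so does not itself restrain the cycle, were also DEGs, while Cdkn1b (0.86 ± 0.30, adjusted p = 0.054), Rb1 (0.62 ± 0.20, adjusted p = 0.039) and Trp53 (0.03 ± 0.16, adjusted p = 0.92) did not meet both thresholds. Summed CPM of the 18 genes was 1341 ± 48 in stroke blood, 1515 ± 263 in sham blood and 3764 ± 210 in stroke brain.

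**Figure D4:**
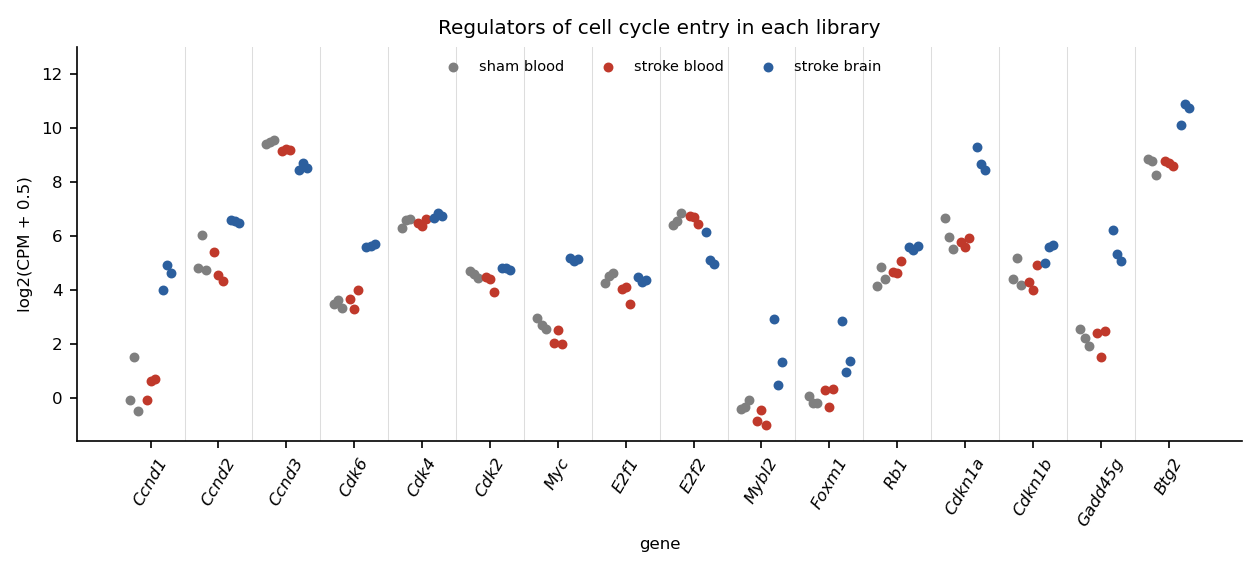
Levels of 16 regulators of the cell cycle in each library, as log2(CPM + 0.5), with 3 points a group. Ccnd1, Myc, Cdk6, Cdkn1a and Gadd45g lie higher in all stroke brain libraries than in all blood libraries, Ccnd3 and E2f2 lie lower, and Mybl2 and Foxm1 are led by stroke brain replicate 1.

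The stroke brain libraries also differed among themselves. Replicate 1 had the highest CPM for 15 of the 19 replication genes and 20 of the 27 mitotic genes, and replicate 3 had the lowest for 21 mitotic genes. Without replicate 1, 12 replication and 21 mitotic genes were upregulated DEGs against stroke blood, with medians of 1.34 and 3.29; Ccne1, Bub1b and Anln lost their calls and Pola1 gained one. Cdc6 had 119 counts there, against 29 and 35 in replicates 2 and 3, and Rrm2 942, against 332 and 466.

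Marker genes of several cell types moved with the groups, and their part in the results was not tested. Over all genes tested in stroke brain versus stroke blood, 13.1% were upregulated and 7.86% downregulated DEGs. Among the monocyte markers, Ly6c2, Plac8 and Lyz2 were downregulated in stroke brain over stroke blood and Nr4a1 was upregulated, and the list summed to between 49672 and 52352 CPM in brain, 101593 and 110913 CPM in stroke blood and 90647 and 126717 CPM in sham blood. All 10 microglial markers were upregulated in stroke brain. They summed there to 1547, 2257 and 4334 CPM in replicates 1, 2 and 3, against 135 to 205 CPM in blood. Of the neutrophil and precursor markers tested, 8 of 13 were higher and 1 lower in brain than in stroke blood, and the list summed to between 921 and 1580 CPM in brain, 678 and 866 CPM in stroke blood and 953 and 2953 CPM in sham blood. Their early granule genes Elane and Mpo had 3047, 252 and 386 and 2965, 1017 and 409 counts in the brain libraries, and at most 131 and 27 counts in blood. Stem and progenitor markers (3 of 5 upregulated) summed to 148 to 192 CPM in brain and 41.6 to 79.5 CPM in blood, dendritic cell markers (6 of 7) to 748 to 1020 CPM and 99.9 to 348 CPM, and T and NK cell markers (5 of 14) to 945 to 1706 CPM and 335 to 1070 CPM. Border-associated macrophage markers (4 of 5) summed to 91.7 to 268 CPM in brain and 29.6 to 145 CPM in blood. B cell markers (0 of 7) summed to 48.5 to 109 CPM in brain and 66.4 to 258 CPM in blood, and erythroid markers (8 of 9 downregulated) to 18.2 to 26.3 CPM and 1227 to 34197 CPM. Of the endothelial and pericyte markers tested, Pecam1 and Kdr were upregulated and Esam downregulated among 5, and the list summed to 54.2 to 71.3 CPM in brain and 43.7 to 63.9 CPM in blood. Of the glial and neuronal markers tested, Slc1a3 and Cspg4 were upregulated among 5, and that list summed to 149 to 203 CPM in brain and 168 to 324 CPM in blood, most of it from Mbp. Slc1a3 had 45, 146 and 378 counts and Cspg4 144, 67 and 85 counts in the brain libraries, and both had 0 in all blood libraries. Cldn5 of endothelial cells, Olig1 and Olig2 of oligodendrocytes and Syt1 of neurons had 0 counts in all 9 libraries.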

How the data were processed

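RNA-seq was made from monocytes/macrophages sorted from the brain and blood of stroke mice and the blood of sham-operated mice, with 3 libraries a group by the tissue and surgery in the labels. The authors amplified cDNA by PCR without molecular identifiers, aligned reads with HISAT2 (GRCm38) and used HTSeq to assign them to genes, and the deposited values are raw counts. Tool versions, annotation release and strand setting are not given in the sources used here. Gene symbols, exon overlaps and exon lengths were read from GENCODE M21, where 53706 of the 53801 gene identifiers were found. The exon length of a gene was that of all its annotated exons merged, which can exceed the length of a single transcript.

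Counts were tested between 2 groups at a time by the quasi-likelihood test of edgeR 4.0.16 (R 4.3.3) after TMM scaling and the default filter on low counts, with Benjamini-Hochberg adjustment over all genes tested, and the code was checked on simulated data. DEGs had an adjusted p below 0.05 and a log2 fold change beyond 1 in either direction. SEs were computed as the log2 fold change without sign divided by the root of F. CPM used total counts. Nothing says that blood libraries differ in more than the mouse, and p-values measure the spread between these libraries. The floor was 3 counts and takes in counting error alone. The 46 genes and the further lists were chosen with earlier results of these data known, so lists were described by counts and medians without a test. All 46 genes could be named; of the further lists, the 5 DEGs with the largest changes and any gene of the G1, E2F and CDK inhibitor lists. Marker genes named singly were picked after their values were seen. Promoters came from RefSeq.

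Alternatives were DESeq2 1.42.0, other scalings and filters, no threshold on fold, a stricter adjusted p (below 0.01), a block on replicate number, 1 fit of all 9 libraries and each library left out. TMM-scaled library sizes for the summed CPM were added after seeing the data.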

Additional observations from a re-analysis of the deposited data

How the results depend on the processing

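In brain versus stroke blood the counts of replication and mitotic DEGs stayed within 1.5 times their main values under every alternative run, from 10 to 12 and from 21 to 22 with a library left out. An adjusted p below 0.01 left 1793 DEGs among all genes. In stroke versus sham blood DESeq2 called 127 genes, with 1 replication and 1 mitotic gene, and a fit without a filter on low counts 160, with 1 replication gene; an adjusted p below 0.01 left 0 genes, and leaving out a library gave 0 to 16. In brain versus sham blood an adjusted p below 0.01 left 792 DEGs, with 6 replication and 3 mitotic genes. Leaving out a library gave 1146 to 1883 DEGs there, with 6 to 10 replication and 4 to 18 mitotic genes. Apart from the fits with fewer libraries or a stricter threshold, the cause was not tested.

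Small differences turned sign. Dut (-0.0183) and Ube2c (-0.0534) did so with upper-quartile scaling in brain versus stroke blood, and in brain versus sham blood so did Kif23 (-0.0183) with upper-quartile scaling, Nusap1 (0.0253) and Anln (0.0765) with library size only and Nusap1 (0.10) with the replicate block. With a library left out, log2 fold changes ranged in brain versus stroke blood from -0.16 to 0.44 for Dut and from -0.10 to 0.24 for Ube2c. In stroke versus sham blood they ranged from -0.77 to 0.26 for Cdc6, from -0.0442 to 0.20 for Pcna, from -0.0677 to 0.68 for Tk1, from -0.0671 to 0.11 for Dut, from -3.10 to 0.0084 for Ccnb1, from -2.36 to 0.12 for Plk1, from -1.50 to 0.12 for Kif20a, from -0.68 to 0.0892 for Ube2c, from -1.07 to 0.50 for Cdc20 and from -1.42 to 0.0643 for Prc1. In brain versus sham blood they ranged from -0.0866 to 1.59 for Cdc6, from -0.12 to 0.47 for Dut, from -0.37 to 0.12 for Aurkb, from -0.25 to 0.47 for Kif23, from -0.58 to 0.18 for Ube2c, from -0.36 to 0.61 for Nusap1 and from -0.27 to 0.18 for Anln.

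Scaling by library size only moved the median of all genes to 0.22 in brain versus stroke blood, where upregulated genes were 62.6% of DEGs by TMM, 72.2% by library size and 52.7% by upper quartile. The list medians then lay between 1.27 and 1.57 for replication and between 3.16 and 3.48 for mitosis. With TMM-scaled library sizes, an alternative chosen after seeing the data, the ratios of summed CPM were 2.49 for replication and 4.28 for mitosis. Deviations of libraries with the same replicate number correlated between -0.069 and 0.068, so the numbers were not taken as pairs; with the replicate number as a block, 2634 genes, 12 replication and 22 mitotic genes were DEGs in brain versus stroke blood and 1571, 9 and 16 in brain versus sham blood. Genes with few counts in blood, such as Bub1, Cenpf and Hmmr, have log2 fold changes that rest on single counts there.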
